A study of Mus musculus with 26 samples.

Results

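The mitochondrial ribosome translates the few messenger RNAs encoded by mitochondrial DNA, all of which specify subunits of the respiratory chain and ATP synthase. Its proteins are encoded in the nucleus, made in the cytosol and imported, and they join mitochondrial ribosomal RNA in a large and a small subunit. Some descend from proteins of bacterial ribosomes, and others are found only in mitochondria. In liver, whose metabolism follows a daily rhythm, they set the capacity of mitochondria to renew the oxidative phosphorylation machinery.

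The genes described here are those whose symbol is Mrpl or Mrps followed by a number and at most 1 letter, each represented by its best expressed transcript. The rule found 76 genes among 22322 symbols, 47 named for the large subunit and 29 for the small subunit. They had 131 transcripts in the tables, with 1 transcript for 49 genes and up to 10 for the others. A few names are historical: Mrps18a and Mrps30 sit in the large subunit, and Mrps36 has since been assigned to the alpha-ketoglutarate dehydrogenase complex.

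The series measured mouse liver RNA by sequencing in a pair of knockout experiments. In the Bmal1 experiment, livers of wild-type C57BL/6 mice served as controls for mice labelled Bmal1 knockout, described as lacking Bmal1 in the liver only, with 3 livers of each genotype at CT0 and 3 at CT12. In the Nr1d1 experiment, wild-type C57BL/6 mice were the controls for mice labelled Nr1d1 knockout, with 2 livers of each genotype at each time. All mice were 8 weeks old and spent the last 2 days in constant darkness, and CT0 is the hour at which the lights had come on. The sources used here do not name the driver of the liver deletion or the deleted part of either gene. Bmal1 (Arntl) is an activator of the circadian clock, and Nr1d1 (REV-ERB alpha) is a repressor in the same clock. The comparisons ask whether either factor, or the time of day, sets the level of a transcript.

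Values are RPKM, the reads of a transcript per kilobase of its length, relative to the depth of the library. Differences are of log2(RPKM + 0.5), and a gene was called where limma gave a Benjamini-Hochberg adjusted p under 0.05 across all genes tested, 11439 in the Bmal1 and 12738 in the Nr1d1 experiment. All 76 genes passed the filter of a mean RPKM of 0.5 in both experiments. The steps of the RPKM values imply 3680934 to 6120767 reads per library over the genes that could be resolved in the Bmal1 experiment, and 11059193 to 31612368 in the Nr1d1 experiment.

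The targeted genes were read first. Arntl was at 15.7 to 16.4 RPKM in control livers at CT0 and at 5.73 to 7.45 in livers labelled Bmal1 knockout. At CT12 the order was the opposite, 0.680 to 1.26 against 3.59 to 4.37. Nr1d1 was higher, not lower, in the livers labelled Nr1d1 knockout at CT0, at 6.10 against 0.374 RPKM in replicate 1 and 32.9 against 22.0 in replicate 2. At CT12 it was at 11.1 against 3.45 in replicate 1 and at 28.4 against 33.4 in replicate 2. Arntl in the same CT12 livers was higher in those labelled knockout, 8.00 against 0.597 and 19.3 against 1.30. These values cover whole transcripts and do not show whether part of a gene is deleted, so genotypes below are the labelled ones. The 5 hepatocyte markers were above 0 in every library. In the Bmal1 experiment they summed at CT0 to 43480 to 48730 RPKM in control livers and to 27670 to 32820 in labelled knockout livers, and at CT12 to 36340 to 44240 and 24380 to 27760, without overlap. Of the 5, 2 had a log2 difference above 0 at CT0 and 3 at CT12. Alb alone was called, lower in labelled knockout livers. Its log2 difference was -0.93 at CT0 (limma adjusted p = 0.00709) and -1.05 at CT12 (limma adjusted p = 0.000528).

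Bmal1 and Nr1d1 act through short DNA words. The promoters of the ribosomal protein genes were searched for the E-box, for a word with the core of Nr1d1 sites, and for words of other activators. RefSeq promoters of build GRCm38.p6 (250 bases before to 50 after the start) were on hand for 67 of the 76 genes, and both strands were read. The E-box CACGTG, bound by Bmal1 with its partner, was in 5 of 67 promoters (7.46%), against 8.09% of the 27025 genes with an entry. The word TNAGGTCA, which holds the AGGTCA core of sites of Nr1d1 and the ROR activators, was in 4 (5.97%), against 5.17%. It leaves the base directly before that core free, so a match need not be a site of these factors. Both shares were close to those of all genes.

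Words of general activators of nuclear genes for mitochondria stood in larger shares of the promoters than in all genes; no test was made. The ETS word CCGGAAG, read by the GABP complex, was in 24 promoters (35.8%), against 9.93% of all genes. The YY1 word AAGATGGC was in 12 (17.9%), against 3.19%. The palindrome of NRF1, shown in capitals below in Mrpl32 and Mrpl39, was in 3 (4.48%, against 1.07%), and with its central T left free in 12 (17.9%, against 5.19%). At least one of the ETS, YY1 and relaxed NRF1 words was in 41 promoters (61.2%), against 16.4%. The members' promoters were also richer in G and C, with a median of 58.3% against 52.7%, and no promoters matched on that content were compared. A match describes letters in a window and is not a measured binding site.

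**Figure D1:**
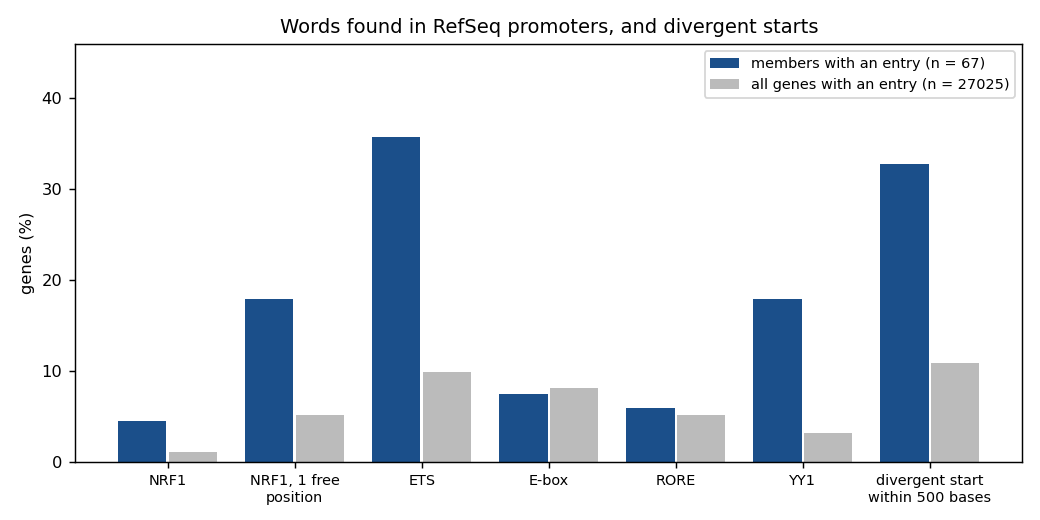
Share of genes (y axis, %) whose RefSeq promoter holds each word, and share with a start on the other strand within 500 bases, for the 67 members with an entry (blue) and all 27025 genes with an entry (grey). The E-box bars and the bars labelled RORE (the word TNAGGTCA) are of similar height in both. The ETS bars stand at 35.8% and 9.93% and the YY1 bars at 17.9% and 3.19%.

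The sequences below show the promoters of Mrpl18 and Mrpl36, genes named in the expression results, and examples of the NRF1 word. Each lies upstream of the RefSeq start and is written 5′ to 3′ on the gene's strand. No link between a word and the expression of its gene was tested. Capitals mark the words named above. Mrpl18, the called gene, has 1 ETS word 240 bases before its start (chr17:12916092-12916341, minus strand). Mrpl36, the gene with the lowest p over time in control livers, carries an E-box 43 bases before its start that overlaps a TNAGGTCA word read on the other strand, followed by a YY1 word (chr13:73330759-73331008, plus strand). Mrpl32 (chr13:14613095-14613144, minus strand) and Mrpl39 (chr16:84735340-84735389, minus strand) hold the full NRF1 palindrome.
Mrpl18: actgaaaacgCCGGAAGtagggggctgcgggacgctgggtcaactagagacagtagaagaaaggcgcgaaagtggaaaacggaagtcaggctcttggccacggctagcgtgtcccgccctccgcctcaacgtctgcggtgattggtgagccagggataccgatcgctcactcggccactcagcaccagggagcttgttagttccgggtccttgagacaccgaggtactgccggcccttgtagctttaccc
Mrpl36: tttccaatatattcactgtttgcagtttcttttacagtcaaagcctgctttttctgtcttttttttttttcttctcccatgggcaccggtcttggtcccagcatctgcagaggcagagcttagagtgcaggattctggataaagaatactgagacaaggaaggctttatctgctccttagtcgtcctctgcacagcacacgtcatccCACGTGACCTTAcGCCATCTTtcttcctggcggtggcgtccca
Mrpl32: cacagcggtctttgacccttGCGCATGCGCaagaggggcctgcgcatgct
Mrpl39: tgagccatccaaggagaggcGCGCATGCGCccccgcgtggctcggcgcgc

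A start of another gene on the opposite strand lay within 500 bases for 22 of the 67 genes (32.8%), against 10.9% of all genes. In one case both neighbours belong to the family: Mrps11 and Mrpl46 start 42 bases apart, and the 41 bases between the starts (chr7:78783090-78783130, plus strand) are shown because a small and a large subunit gene share them.
Mrps11: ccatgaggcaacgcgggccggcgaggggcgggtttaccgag

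In the Bmal1 experiment the genes were expressed at moderate and similar levels. The mean over 12 libraries had a median of 16.2 RPKM, and 54 of the 76 genes lay between 10 and 30 RPKM. The median was 15.8 for genes named for the large subunit and 16.6 for those named for the small subunit. On the same per-length scale, cytosolic ribosomal proteins had a median of 247 RPKM and subunits of oxidative phosphorylation 108 RPKM.

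The highest means belonged to Mrps21 (52.5 RPKM), Mrps18b (47.0), Mrpl42 (45.7), Mrps18c (41.6) and Mrpl52 (38.1). Mrps21 ranged from 41.5 to 66.6 RPKM and overlapped the range of Mrps18b, 35.6 to 56.6. Mrps18a, Mrps18b and Mrps18c are relatives of a single bacterial protein of the small subunit, and Mrps18a, at 14.2 to 23.9 RPKM, lay below every library of the others. The lowest means were those of Mrps25 (1.47 RPKM), Mrps26 (2.00), Mrpl19 (2.09), Mrpl47 (3.23) and Mrps6 (3.78). Each such value describes 1 annotated transcript, so a low mean can leave out reads of the gene's other transcripts, whether or not the tables hold them.

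The levels varied little between livers. The highest library was less than 1.5 times the lowest for 37 genes and less than 2 times for 73, and the exceptions were Mrpl47 (2.02), Mrps36 (2.09) and Mrpl48 (2.23). The range over 12 libraries had a median of 0.56 on the log2 scale, against 0.76 for all genes tested and 0.72 for genes of the same range of level. The residual SD within groups had a median of 0.15, against 0.18 for all genes. Cytosolic ribosomal proteins had a smaller median range, 0.51, and residual SD, 0.09, and so had oxidative phosphorylation genes, at 0.44 and 0.13. Summed over the 76 genes, libraries stood at 1273 to 1533 RPKM. The library labelled Bmal1 knockout CT0 replicate 1 was the highest, with 65 of 76 genes above its group's mean.

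**Figure D2:**
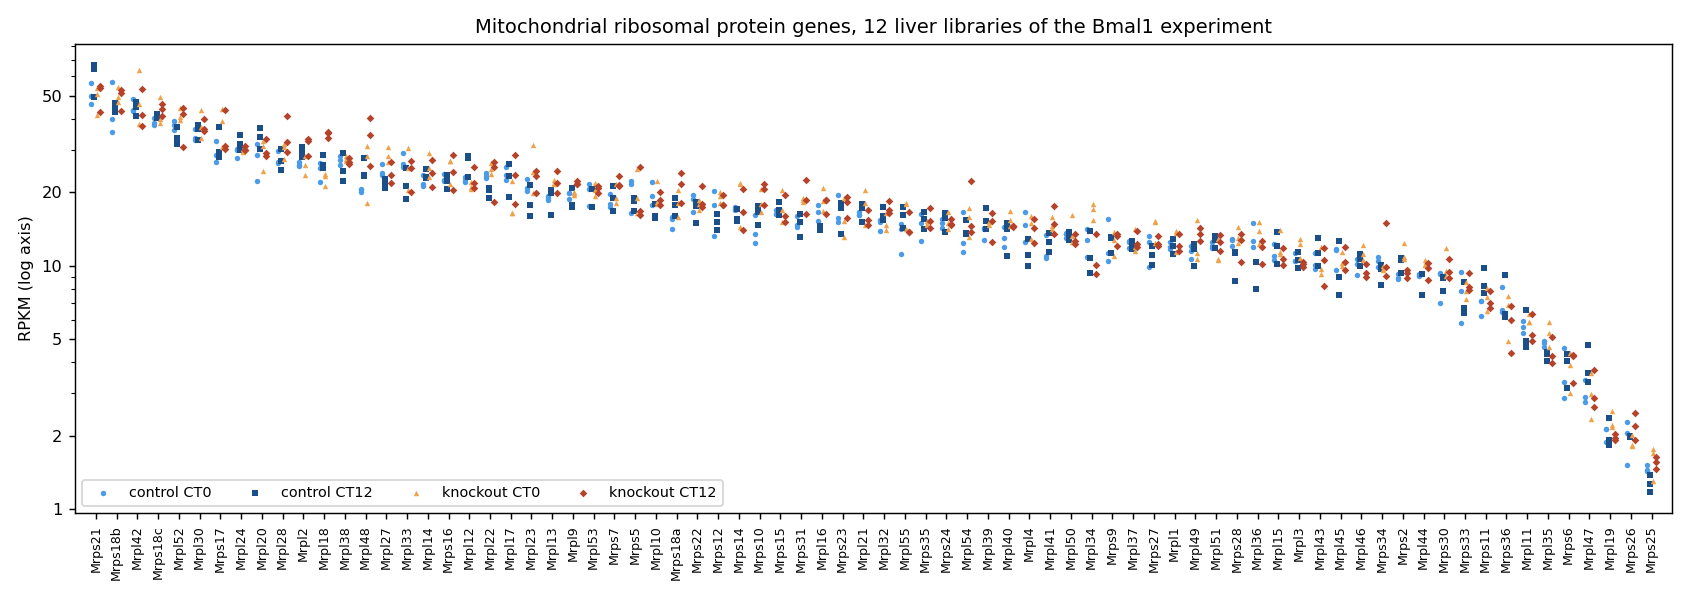
RPKM on a log axis of each of the 76 genes (x axis, ordered by mean) in the 12 libraries of the Bmal1 experiment, with a marker for each genotype and time. Most genes sit between 10 and 30 RPKM with the groups intermingled, and the right end falls to Mrps25 at 1.47.

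At CT12, 1 of the 76 genes differed between livers labelled Bmal1 knockout and control livers: Mrpl18 rose. Mrpl18 is a protein of the large subunit's central protuberance. Of all genes tested, 9.68% were called in that comparison, 6.46% higher. At CT0 no member was called (0 of 76, against 1.62% of all genes), and 7 members had an unadjusted p under 0.05 by limma. The range of the 76 differences was -0.37 to 0.41 at CT0 and -0.31 to 0.40 at CT12.

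Mrpl18 stood at 26.5, 25.2 and 22.0 RPKM in control livers at CT0 and at 28.4, 26.0 and 25.1 at CT12. Its level in livers labelled Bmal1 knockout was 23.3, 23.9 and 21.2 RPKM at CT0 and 33.5, 35.4 and 35.1 at CT12. The 3 labelled knockout livers at CT12 were above all 9 other livers, which lay between 21.2 and 28.4. The difference between genotypes at CT12 was 0.38 ± 0.09 (SE) on the log2 scale (limma adjusted p = 0.0202, 95% interval 0.18 to 0.58). From CT0 to CT12 the transcript rose by 0.60 ± 0.09 in labelled knockout livers (adjusted p = 0.00969), and the difference in controls was 0.11 (adjusted p = 0.486). Those comparisons share the labelled knockout CT12 livers. The difference between the time effects was 0.49 ± 0.13 and missed the threshold (adjusted p = 0.112).

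The genotype call at CT12 rested on each of several livers. It was lost without control CT12 replicate 2 (adjusted p = 0.0607) or replicate 3 (0.0835) and without labelled knockout CT12 replicate 2 (0.0677) or replicate 3 (0.0587), and with TMM scaling (0.29, adjusted p = 0.0603). The time call in labelled knockout livers was lost without knockout CT0 replicate 3 (adjusted p = 0.0502) and when only the compared groups were fitted (0.0581). The difference itself stayed between 0.35 and 0.43 for genotype and between 0.55 and 0.63 for time when any 1 library was left out. Erythroid markers (5 genes) summed to 107 to 190 RPKM in control livers at CT12 and to 245 to 306 in labelled knockout livers, and neutrophil markers (7 genes) to 5.94 to 8.80 and 17.8 to 46.3, respectively. No erythroid marker was at 0, while 2 neutrophil markers were at 0 in control CT12 replicate 1 and 1 in replicate 2. In labelled knockout livers at CT0 the neutrophil markers summed to 104 to 219 RPKM, and 5 of 7 were called lower at CT12. The erythroid markers summed there to 212 to 223 RPKM, and 0 were called over time. The 5 hepatocyte markers summed to 36340 to 44240 RPKM in controls and 24380 to 27760 in labelled knockout livers. Alb alone was called lower, while 3 of the 5 had a log2 difference above 0 (median 0.10). Kupffer cell and macrophage markers were higher in labelled knockout livers for 6 of 6, endothelial for 4 of 5 and stellate for 3 of 5, none called. Of 3 cholangiocyte markers tested 2 were higher and 1 was called, Sox9 (0.85). The 1 lymphocyte marker tested was higher and not called. The part of these markers in the result was not tested. In whole liver, fewer cells of a type and less RNA per cell cannot be told apart.

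Tcp1, which encodes a subunit of the cytosolic chaperonin CCT, starts 238 bases from Mrpl18 on the other strand, and it was looked at after the values of Mrpl18 were seen. In the Bmal1 experiment Tcp1 was lower, not higher, in labelled knockout livers at CT12. Tcp1 stood at 50.4, 49.3 and 49.4 RPKM in control livers at CT0 and at 67.4, 64.2 and 67.4 at CT12. Livers labelled Bmal1 knockout stood at 58.1, 49.6 and 50.4 at CT0 and at 49.4, 44.3 and 48.4 at CT12. The control livers at CT12 were above all others, so that the high group of Tcp1 was not the high group of Mrpl18. In the Nr1d1 experiment Tcp1 was higher at CT12 than at CT0 in every pair of livers. It went from 38.6 to 54.6 RPKM (replicate 1) and from 203 to 215 (replicate 2) in controls. In livers labelled Nr1d1 knockout it went from 38.1 to 50.7 and from 189 to 211. Mrpl18 was higher at CT12 in those pairs too. Of all genes tested, 36.9% were higher at CT12 in both control pairs and 47.0% in both labelled knockout pairs.

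At CT12 Tcp1 was lower in labelled knockout livers by a log2 difference of -0.48 ± 0.08 (limma adjusted p = 0.00271), and in control livers it rose by 0.41 from CT0 to CT12 (adjusted p = 0.00771). The difference between its time effects was -0.56 ± 0.11 (adjusted p = 0.0372), a call that was lost when any library other than knockout CT0 replicate 2 was left out, with adjusted p up to 0.104, or when transcripts were summed (0.0571). Of the 16 divergent partners tested, Tcp1 was the 1 called between genotypes at CT12, where 9.68% of all genes were called. The neighbours Mrps11 and Mrpl46 both had log2 differences below 0 between genotypes at CT12, -0.24 and -0.15, and neither was called.

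**Figure D3:**
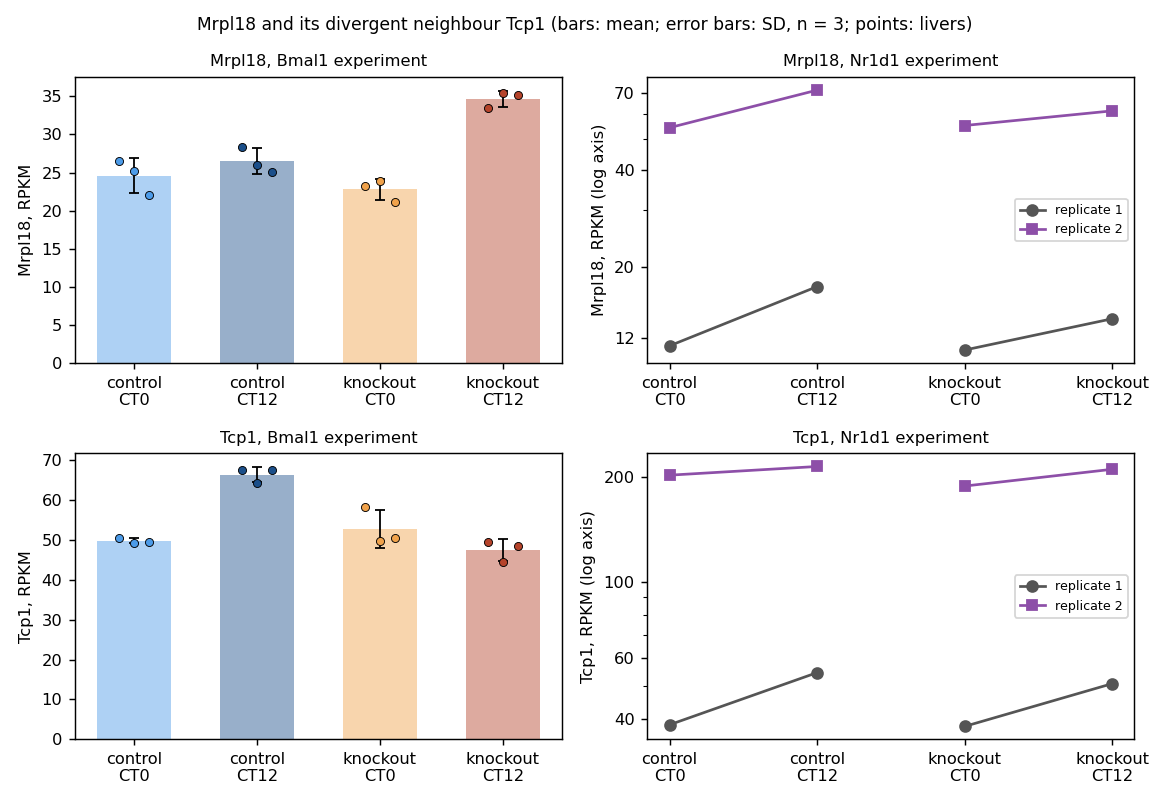
RPKM of Mrpl18 (top) and Tcp1 (bottom) in the Bmal1 experiment (left, bars are means, error bars SD, n = 3, points are livers) and in the Nr1d1 experiment (right, log axis, 1 line per replicate and genotype). In the Bmal1 experiment Mrpl18 is highest in labelled knockout livers at CT12 (33.5 to 35.4) and Tcp1 in control livers at CT12 (64.2 to 67.4). In the Nr1d1 experiment every line of both genes rises from CT0 to CT12. Of all genes tested, 36.9% were higher at CT12 in both control pairs and 47.0% in both labelled knockout pairs.

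The other members with the lowest p at CT12 were not called. Mrpl16 differed by 0.30, Mrps31 by 0.35, Mrpl9 by 0.23 and Mrpl28 by 0.32, with limma adjusted p from 0.0838 to 0.142. Mrps31, a protein found only in mitochondrial ribosomes, stood at 15.1, 13.1 and 16.3 RPKM in control livers and 16.3, 18.6 and 22.5 in labelled knockout livers at CT12. The groups did not overlap, by a narrow margin (16.26 and 16.34). At CT0 Mrps31 stood at 16.0, 14.4 and 14.6 against 19.0, 18.3 and 18.7, without overlap, a difference of 0.31 (adjusted p = 0.259).

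At CT0 the 5 members with the lowest p were all higher in labelled knockout livers and none was called. They were Mrps2 (0.31), Mrps10 (0.38), Mrpl41 (0.34), Mrps31 (0.31) and Mrpl34 (0.41), with limma adjusted p from 0.137 to 0.285. Mrps10 stood at 16.1, 13.6 and 12.4 RPKM in control livers and at 20.6, 16.6 and 17.8 in labelled knockout livers, without overlap. Over all members, 13 were higher without overlap (10.8% of all genes were) and 2 were lower (9.07% of all genes). At CT12 the counts were 8 higher (19.9% of all genes) and 0 lower (8.03%).

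At CT0 most members had small differences above 0. Of the members, 59 of 76 were higher in labelled knockout livers (77.6%), against 52.1% of all genes, and their median difference was 0.10 against 0.01. In the same comparison 70 of 77 cytosolic ribosomal protein genes (median 0.15) and 60 of 76 oxidative phosphorylation genes (median 0.09) were higher. With TMM scaling 58 members were higher, and without knockout CT0 replicate 1 the median was 0.04. At CT12, 54 of 76 were higher (71.1%) against 65.1% of all genes, with medians of 0.11 and 0.09, and TMM scaling brought these to 39 of 76, 0.01 and 0.00. The median at CT0 was 0.10 for genes named for the large subunit and 0.08 for those named for the small subunit. Families shared with bacteria were taken by symbol number, Mrpl up to 36 and Mrps up to 21. The median was 0.10 for these 44 genes and 0.07 for the 32 with higher numbers, Mrps36 among them.

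The precision of these comparisons bounds what could have been missed. The 95% interval lay within a log2 difference of 1 in either direction for all 76 members in each Bmal1 comparison. It lay within 0.5 for 59 members at CT0 and 55 at CT12, 62 over time in controls and 66 over time in labelled knockout livers.

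Between CT0 and CT12 in control livers no member was called (0 of 76, against 10.8% of all genes), and 4 members had an unadjusted p under 0.05 by limma. The lowest p was that of Mrpl36, a very small protein of the large subunit. Mrpl36 stood at 14.9, 12.6 and 11.9 RPKM at CT0 and at 10.3, 8.03 and 10.4 at CT12, without overlap. Its difference was -0.44 ± 0.13 (adjusted p = 0.0539), and it was called with the replicate number as a block (adjusted p = 0.0375) and with a filter of mean RPKM of 2 (0.0474). In labelled knockout livers Mrpl36 stood at 15.1, 12.3 and 13.9 at CT0 and 12.7, 11.9 and 10.2 at CT12, and the groups overlapped. Over time in control livers 5 of 7 neutrophil and 2 of 5 erythroid markers were called lower, as were Dcn (stellate cells) and Sox9 (cholangiocytes). No hepatocyte, Kupffer cell and macrophage, endothelial or lymphocyte marker was called. The part of these markers was not tested.

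The next members were Mrpl4 (-0.36), Mrps11 (0.30), Mrpl10 (-0.24) and Mrpl12 (0.21), with limma adjusted p from 0.115 to 0.208. Mrps11 stood at 6.21, 7.17 and 7.17 RPKM at CT0 and at 9.74, 7.74 and 8.26 at CT12, and it was called under TMM scaling (0.39, adjusted p = 0.0421). Without overlap, 6 members were higher at CT12 (10.7% of all genes) and 8 were lower (22.8%). The members' median was -0.01 and that of all genes -0.08. Under TMM scaling the members' median was 0.08 and that of all genes -0.00, and under quantile normalization they were 0.05 and 0.01. The sign of the members' median thus depends on the scaling. Its distance above all genes was 0.07 without scaling, 0.08 with TMM and 0.04 with quantile normalization.

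In livers labelled Bmal1 knockout 1 member was called over time, Mrpl18 (against 1.90% of all genes, 0.909% higher). Mrpl34, another small protein of the large subunit, had a difference of similar size in the other direction. It stood at 17.2, 15.5 and 17.9 RPKM at CT0 and at 9.25, 10.1 and 13.5 at CT12, without overlap, a difference of -0.61 ± 0.17 (limma adjusted p = 0.0794). It was called without knockout CT12 replicate 3 (-0.77, adjusted p = 0.0475). In controls the same gene stood at 10.8, 12.8 and 14.1 at CT0 and 13.9, 10.8 and 9.36 at CT12, and the times overlapped.

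Mrpl2 (0.27), Mrps2 (-0.27) and Mrpl27 (-0.24) followed, with adjusted p from 0.138 to 0.189. Without overlap, 4 members were higher (11.4% of all genes) and 5 lower (11.2%) at CT12 in labelled knockout livers. The median was -0.03 for members and -0.00 for all genes. For the difference between the time effects no member was called (0 of 76, against 1.31% of all genes), and 3 had an unadjusted p under 0.05.

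**Figure D4:**
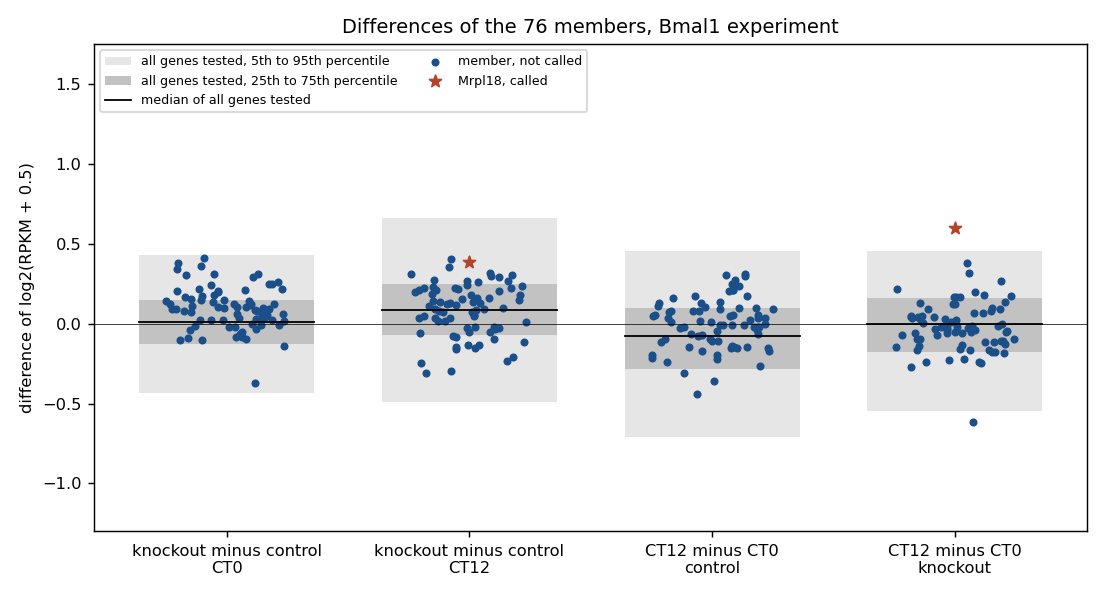
Differences of log2(RPKM + 0.5) (y axis) of the 76 genes in 4 comparisons of the Bmal1 experiment, over the 5th to 95th and 25th to 75th percentiles (grey) and the median (line) of all genes tested. Stars mark Mrpl18 where called (0.38 and 0.60), and all other points lie between -0.61 and 0.41.

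Among the members, the pattern of Mrpl18 over the 12 libraries was most like those of Mrpl2 (Pearson r = 0.86), Mrpl32 (0.76) and Mrpl48 (0.70), and most unlike that of Mrpl34 (-0.58). The 12 points share groups and libraries, and no test was made. Mrpl48 stood at 20.7, 20.5 and 20.1 RPKM in control livers at CT0, and at 25.6, 40.5 and 34.5 in labelled knockout livers at CT12.

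Members were also read by the promoter words they carry, without a test. At CT12 the median difference between genotypes was 0.09 for the 5 genes with an E-box, 0.13 for the 24 with an ETS word and 0.13 for the 12 with a YY1 word, against 0.11 for all members. Over time in controls these medians were 0.08, -0.04 and -0.01, against -0.01. The 4 genes with the TNAGGTCA word had a median of 0.18 at CT12, with 4 of 4 higher, and of -0.17 over time in controls, with 1 of 4 higher. At CT12 54 of all 76 members and 65.1% of all genes were higher, so most genes with any word were. The counts were 4 of 5 for the E-box, 18 of 24 for ETS and 9 of 12 for YY1. Over time in controls 37 of 76 members and 38.1% of all genes were higher. For the 3 genes with the full NRF1 word the medians were 0.08 at CT12 and 0.13 over time in controls. For the 12 with the relaxed one they were 0.06 and 0.04.

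In the rest of the mitochondrial translation pathway a few genes were called in the Bmal1 experiment. At CT12 the called genes were higher in labelled knockout livers, where 6.46% of all genes were called higher. Of 7 other mitoribosomal proteins 1 was called, Ict1 (0.34), a peptidyl-tRNA hydrolase built into the large subunit. Of 19 mitochondrial aminoacyl-tRNA synthetases 3 were called, Tars2 (0.36), Fars2 (0.35) and Cars2 (0.54). None of 14 translation factors, 21 assembly and rRNA modification genes and 10 regulators was called at CT12, and at CT0 and over time in labelled knockout livers no gene of these lists was called. All 4 calls were lost under TMM scaling, under quantile normalization and when only the compared groups were fitted. They were also lost without control CT12 replicate 2 or 3 or knockout CT12 replicate 1 or 3. Without control CT12 replicate 3 the limma adjusted p was 0.121 to 0.154. Under quantile normalization 1 of the 19 synthetases was called lower.

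Of 12 genes for mitochondrial transcription and RNA, Top1mt, a mitochondrial topoisomerase, was higher in labelled knockout livers at CT12 by 0.87 ± 0.13 (limma adjusted p = 0.000977) and remained called in every alternative run. Over time in control livers Lrpprc, which stabilises mitochondrial messenger RNAs, rose by 0.41 (adjusted p = 0.0103), and Gabpb1, a subunit of the GABP activator, fell by 0.83 (adjusted p = 0.00417); both remained called in every alternative run. In the same comparison Noa1 and Esrra rose and Cars2, Tars2 and Top1mt fell. Of all genes tested, 10.8% were called there. The called genes were 1 of 21 assembly genes and 2 of 19 synthetases. Of the 12 transcription and RNA genes and of the 10 regulators, 1 each was called higher and 1 lower. None of the 7 other mitoribosomal proteins or the 14 translation factors was called. The calls of Noa1, Cars2, Tars2 and Top1mt were lost without control CT0 replicate 1 or 2 or control CT12 replicate 2 or 3 (adjusted p up to 0.128). That of Esrra was lost without control CT0 replicate 2 (0.0867) or control CT12 replicate 1 (0.0803) or 3 (0.0550).

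The cytosolic ribosomal proteins and the respiratory chain gave a frame for the members. At CT12 26 of 77 cytosolic ribosomal protein genes were called higher in labelled knockout livers (median 0.28), against 6.46% of all genes. Under TMM scaling 3 were (median 0.18) and with quantile normalization 25 (median 0.24). Of 76 oxidative phosphorylation genes 1 was called higher (median -0.04). TMM scaling gave 1 higher and 2 lower (median -0.14), and quantile normalization 1 higher and 1 lower (median -0.07). The difference between these lists and the members was not tested.

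In the Nr1d1 experiment the replicates were on different scales. The members' median was 13.5 RPKM in replicate 1 and 79.6 in replicate 2, which the labels describe as paired-end. The ratio of replicate 2 to replicate 1 ran from 2.40 for Mrpl50 to 15.0 for Mrpl52, with a median of 5.40, and was also high for Mrpl17 (14.8), Mrpl12 (14.1) and Mrps34 (13.6). Levels of members were therefore compared within a replicate. The order of the genes was similar: Spearman's rho across the 76 members was 0.89 between replicates, and 0.93 between replicate 1 and the Bmal1 experiment. The members share gene length and annotation in those comparisons.

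No member was called in any comparison of the Nr1d1 experiment with the replicate as a block. All genes gave 0% called between genotypes at CT0, 0.0393% at CT12, 0.353% over time in controls, 0.0550% over time in livers labelled Nr1d1 knockout, and 0% for the difference between the time effects. By limma without adjustment, 5 members had p under 0.05 over time in controls and 0 in each other comparison. The 95% interval lay within a log2 difference of 1 in either direction for 76 members between genotypes at each time, 74 and 75 over time, and 60 for the difference of the time effects. It lay within 0.5 for fewer members than in the Bmal1 experiment. These were 15 between genotypes at CT0, 22 at CT12, 14 over time in controls, 11 in labelled knockout livers, and 0 for the difference of the time effects.

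The replicates differed in the direction of the members, and all genes moved between libraries too. Between genotypes at CT0 the members' median was -0.02 in replicate 1, with 35 of 76 higher in the liver labelled Nr1d1 knockout, where all genes had -0.08 with 34.2% higher. In replicate 2 it was 0.26 with 64 higher, where all genes had -0.01 with 49.3% higher. The members thus lay above all genes in both replicates. At CT12 the members' medians were 0.03 (44 higher) and -0.11 (20 higher), against -0.01 (46.8% higher) and 0.07 (59.7%) for all genes, so they lay above in replicate 1 and below in replicate 2.

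From CT0 to CT12 in labelled knockout livers the members had 0.20 (68 higher) and -0.24 (22 higher), and all genes 0.27 (83.3%) and 0.05 (53.9%). The members lay below all genes in both replicates, although their own medians had opposite signs. In control livers both replicates had members' medians above 0, 0.13 (61 higher) and 0.19 (64 higher). All genes had 0.20 (74.7%) and -0.04 (45.7%), so that the members lay below in replicate 1 and above in replicate 2. These comparisons share libraries, and the distance between members and all genes was not tested.

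Counted over both pairs, at CT0 30 members were higher in both (17.8% of all genes) and 7 lower in both (33.2%). At CT12 15 were higher (31.0%) and 27 lower (23.5%). Over time in controls 55 were higher (36.9%) and 6 lower (15.5%), and over time in labelled knockout livers 22 were higher (47.0%) and 8 lower (8.78%). Under TMM scaling the median over time in controls went from 0.16 to 0.05 with 50 of 76 members higher in place of 66. In labelled knockout livers TMM scaling moved the median of all genes by -0.15 and that of the members from 0.00 to -0.19.

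In replicate 2, the liver labelled Nr1d1 knockout at CT0 had the highest summed level of members, 8359 RPKM, against 6739, 7686 and 7158 in the others. Its 5 erythroid markers summed to 11070 RPKM against 2869 to 4810, and its 7 neutrophil markers to 26.8 against 2.43 to 10.7. In the control libraries of that replicate 3 and 4 of the neutrophil markers were at 0. Their part in the members' direction was not tested.

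**Figure D5:**
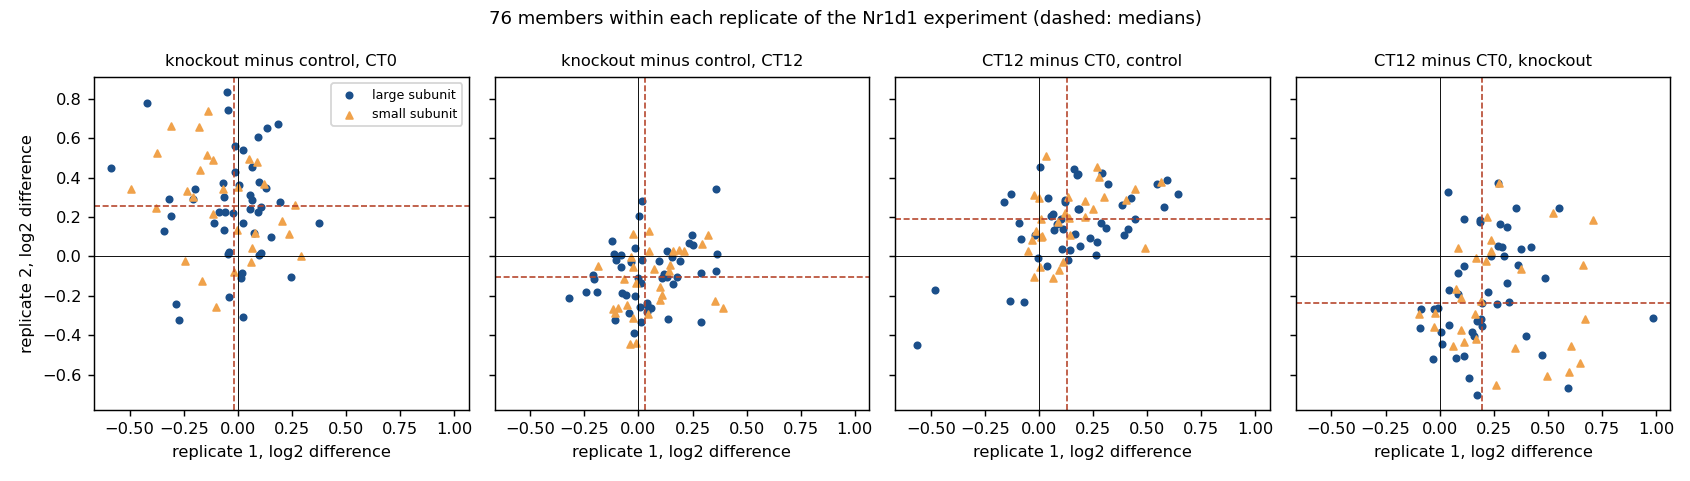
Log2 differences of the 76 genes in replicate 1 (x axis) and replicate 2 (y axis) of the Nr1d1 experiment, in 4 comparisons. Circles are genes named for the large subunit, triangles those named for the small subunit, and the medians are dashed. The medians have the same sign in control livers over time (0.13 and 0.19) and opposite signs in the other panels. The medians of all genes are not drawn, and in control livers over time they were 0.20 and -0.04.

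Single members illustrate the spread. Mrpl18 stood at 11.3 and 17.3 RPKM at CT0 and CT12 in the controls of replicate 1, and at 54.4 and 71.2 in those of replicate 2. In livers labelled Nr1d1 knockout it stood at 10.98 and 13.75, and at 55.2 and 61.3. It was higher at CT12 in all 4 pairs of livers. In both control pairs 55 of 76 members and 36.9% of all genes were higher, and in both labelled knockout pairs 22 members and 47.0%. The difference of Mrpl18 in controls was 0.49 ± 0.18 (limma adjusted p = 0.501) and that between genotypes at CT12 -0.27 (limma adjusted p = 0.9998).

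Mrpl2 stood at 22.1 and 25.2 RPKM in control and labelled knockout livers at CT0 in replicate 1, and at 114 and 181 in replicate 2. The difference of 0.43 ± 0.20 had the lowest p of the members in that comparison (limma adjusted p = 0.873). Mrpl23 stood at 20.96 and 27.0 at CT12 in replicate 1 and at 132 and 167 in replicate 2, a difference of 0.35 ± 0.17 (adjusted p = 1.00). Mrpl34 was lower at CT12 in the controls of both replicates, 15.4 to 10.2 and 113 to 82.6, a difference of -0.51 ± 0.18 (adjusted p = 0.497). Each of these pairs moved one way, and none passed the threshold.

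In the rest of the pathway, none of the 7 other mitoribosomal proteins, 14 translation factors, 21 assembly genes, 19 aminoacyl-tRNA synthetases, 12 transcription and RNA genes and 10 regulators was called in the Nr1d1 experiment.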

How the data were processed

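The deposited tables hold 1 RPKM value per transcript and library, computed by the authors. TopHat2, Bowtie and bedtools 2.19.1, and the build mm9, are listed per the submitters' processing notes; the sources used here do not give their roles, the annotation release, the use of strand or the handling of reads that fit several copies. The 46585 transcripts present in all 20 RNA libraries were joined, and each symbol took the transcript with the highest mean log2(RPKM + 0.5). The 4C libraries were not used here. Groups came from sample titles.

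Each experiment was fitted once with limma 3.58.1 (R 4.3.3) on log2(RPKM + 0.5), with 0.5 as the lowest mean RPKM of a tested gene, 4 group means, a mean trend and Benjamini-Hochberg adjustment over all genes. The Nr1d1 fit had the replicate as a block, because only replicate 2 is described as paired-end and deviations of same-numbered libraries correlated at 0.82 to 0.88; in the Bmal1 experiment they correlated at -0.06 to 0.12 and no block was used. Named members were the called ones and those with the lowest p, up to 5 per comparison, Tcp1 and genes called in pathway lists being additions. Members and lists were chosen with earlier results of these data known.

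Whole reads were recovered from RPKM steps (98.7% of genes in the Bmal1 and 86.2% in the Nr1d1 experiment within 0.05 of a whole number; all 76 and 61 of 76 members), with at least 29 reads for every member in each Bmal1 library. Alternatives were other pseudocounts, filters, scalings, fits and libraries left out, and, added after seeing the data, voom on the recovered reads. The scripts were tested on simulated data.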

Additional observations from a re-analysis of the deposited data

Results flagged for a closer look

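Mrps2, a protein of the small subunit, had time differences of opposite sign in the genotypes of the Bmal1 experiment. It stood at 9.24, 8.92 and 8.82 RPKM in control livers at CT0 and at 10.8, 9.33 and 10.5 at CT12. The livers labelled Bmal1 knockout had 12.4, 10.8 and 10.7 RPKM at CT0 and 8.87, 9.30 and 9.61 at CT12. Every control liver at CT12 was above every control liver at CT0, by a narrow margin (9.24 and 9.33). Every labelled knockout liver at CT12 was below those at CT0. Of all genes tested, 10.7% were higher without overlap over time in controls, and 11.2% lower without overlap in labelled knockout livers. The difference between the time effects was -0.44 ± 0.13 on the log2 scale and did not pass the threshold (limma adjusted p = 0.167). In the Nr1d1 experiment Mrps2 stood at 7.72 and 7.76 RPKM in the controls of replicate 1 at CT0 and CT12, and at 31.5 and 33.7 in those of replicate 2. In livers labelled Nr1d1 knockout it stood at 7.71 and 8.73 in replicate 1, and at 34.6 and 34.4 in replicate 2.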

How the results depend on the processing

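Of the members called between genotypes at CT12 in the Bmal1 experiment, 1 in the fit as reported, TMM scaling left 0. Leaving out 1 library gave 0 to 3: 2 without control CT12 replicate 1 (Mrpl18 and Mrpl9), 3 without knockout CT12 replicate 1 (Mrpl18, Mrpl22 and Mrps31), and 0 without control CT12 replicate 2 or 3 or knockout CT12 replicate 2 or 3. Over time in control livers, where 0 were called, 1 was called with mean RPKM of at least 2 (Mrpl36), 1 with TMM scaling (Mrps11) and 1 with the replicate block (Mrpl36). The replicate block changed no other count of members. In the Bmal1 experiment same-numbered livers share only a number. Over time in labelled knockout livers, where 1 was called, fitting only the compared groups gave 0, and leaving out 1 library gave 0 (without knockout CT0 replicate 3) to 2 (without knockout CT12 replicate 3, Mrpl18 and Mrpl34). The cause was not tested. The count stayed at 0 under every alternative run for genotype at CT0 and for the difference of the time effects in the Bmal1 experiment, and for all comparisons of the Nr1d1 experiment, there also with no replicate block and with voom, which covered 61 of 76 members. Across all counts, 185 alternatives were the same as reported and 13 moved. No value of a called gene changed sign. The interaction needs all groups, so it was not refitted on the compared groups only. Depth limits the lowest members most, with 29 reads in the smallest Bmal1 value.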
